A study of Mus musculus with 6 samples.

Results

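Phox2a, Tbx20, Nkx2-9, Nkx6-1 and Nkx6-2 are 5 transcription factor genes tied to motor neurons whose axons leave the neural tube dorsally, to spinal accessory motor neurons and to the progenitors that give rise to them. Every probe that the platform annotation assigns to 1 of these symbols was taken, whether or not it was detected, which gave 9 probes for 5 of the 19057 genes named on the array. The samples were cervical motor neurons of mouse embryos at e12.5, sorted by their GFP fluorescence from HB9::GFP embryos whose strain was a mix of C57BL/6, BALB/c and FVB. The group labelled Hox5 mutant (n = 3) carries, per the series title, a floxed Hoxa5 allele with an Olig2-driven Cre and a Hoxc5 null allele, and the wild-type group (n = 3) is labelled wild type with no alleles listed. Olig2-Cre acts in motor neuron progenitors, and the reporter follows HB9, a gene of somatic motor neurons, so the sort selects cells by HB9. Pooling of embryos is not stated in the labels, and p-values therefore reflect only the spread among these 6 samples, which may be technical.

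Motor neurons leave the brainstem and spinal cord by 2 routes. Somatic motor neurons send axons out ventrally and use Mnx1 (HB9), Lhx3 and Lhx4, whereas branchial and visceral motor neurons of the hindbrain and the spinal accessory neurons of the cervical cord send axons out through dorsal or lateral exit points. Phox2a is a paired-type homeodomain factor of hindbrain motor neurons and noradrenergic neurons, and Tbx20 is a T-box factor of branchial and visceral motor neurons that is also used in the heart. Nkx2-9 is a homeodomain factor of the most ventral progenitors, needed in mouse for the dorsal exit of spinal accessory axons. Nkx6-1 and Nkx6-2 are closely related homeodomain repressors that pattern ventral progenitors and promote motor neuron fate, and Nkx6-1 stays on in some motor neurons after division.

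Between 19307 and 20307 of the 45281 probes on each array were detected, which here means a detection p under 0.05. The targeted genes did not check the genotype. The Hoxa5 probe was detected on all arrays labelled mutant, at a log2 intensity of 13.54 ± 0.348, against 13.99 ± 0.0432 on the wild-type arrays. The Hoxc5 probe was at 7.31 ± 0.633 on the arrays labelled mutant, against 6.58 ± 0.105 on the wild-type arrays (SD, n = 3 each). The position of these probes relative to the deletions was not known here, so the first group is called the arrays labelled mutant, and mutant replicate 1 is the first array so labelled. That array stood apart. On it, 9.79% of 13638 features lay at least 1 log2 unit from the mean of the other 5 arrays, where the other arrays had 0.799% to 1.52%. The labelled cell type was present by its markers: all 12 motor neuron genes examined passed the filter on dim probes, and Isl1, Chat and Mnx1 were detected on all 6 arrays. Isl2 was detected on 1 array labelled mutant and 2 wild-type arrays, and Slc5a7 on 2 arrays labelled mutant and 1 wild-type array. Of 11 genes of ventral interneurons with a probe, 8 also passed that filter, so passing it does not measure the purity of the sort.

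The 5 genes split by detection. The probe of Phox2a, that of Nkx6-1 and both of Nkx6-2 were detected on every array of both groups. The 4 probes of Tbx20 and the probe of Nkx2-9 were not, apart from 1 Tbx20 probe on 1 array. A probe was kept for testing when detected on at least 3 of the 6 arrays, so 4 of the 9 probes, standing for 3 of the 5 genes, were tested.

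**Figure D1:**
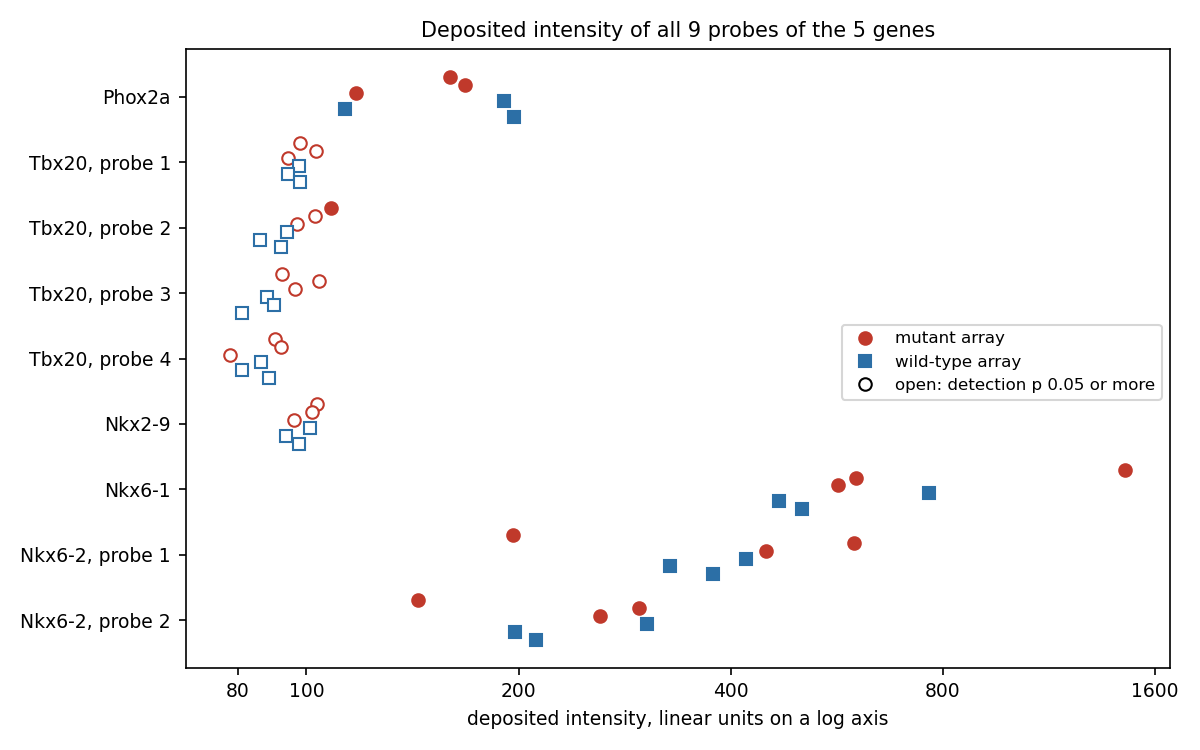
Deposited intensity of all 9 probes of the 5 genes on each of the 6 arrays, in linear units on a log axis. Filled points have a detection p under 0.05 and open points do not; circles are arrays labelled mutant and squares wild-type arrays. The Tbx20 and Nkx2-9 probes lie between 78 and 108.4, while Nkx6-1 reaches 1452.7.

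Tbx20 was near background in both groups. Its brightest probe after normalization had intensities of 94.2 to 103.2 on the arrays labelled mutant, against 94.2 to 97.8 on the wild-type arrays, with detection p from 0.171 to 0.739 and from 0.238 to 0.244. The second probe reached 108.4 on mutant replicate 1 with a detection p of 0.0481, the only detection among the 24 pairs of Tbx20 probe and array. On the other arrays labelled mutant it was at 102.7 and 96.9, against 93.9, 85.9 and 92 on the wild-type arrays. The third probe lay between 92.4 and 104.2 on the arrays labelled mutant and between 80.9 and 90.1 on the wild-type arrays, but it was detected on none of them, and its normalized log2 values overlapped between the groups. The fourth lay between 78 and 92 on the arrays labelled mutant and between 81 and 88.6 on the wild-type arrays. A Tbx20 level above the background of these arrays was therefore not detectable apart from that single call, and no fold is given. At a threshold of 0.05, 1 call among 24 pairs can come from background alone.

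Nkx2-9 was likewise not detected on any array. Its probe had intensities of 103.4, 101.8 and 95.9 on the arrays labelled mutant, against 101.2, 93.5 and 97.5 on the wild-type arrays. The detection p ran from 0.129 to 0.665 on the arrays labelled mutant and from 0.131 to 0.269 on the wild-type arrays. The 2 groups covered nearly the same range, and neither gave a measurable level.

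Phox2a was detected on all 6 arrays at a low level that varied within both groups. Its deposited intensity was 159.8, 167.8 and 117.7 on the arrays labelled mutant, against 190.7, 113.6 and 196.8 on the wild-type arrays. On the log2 scale after background correction and quantile normalization these became 6.31, 6.37 and 4.98 on the arrays labelled mutant and 6.65, 5.45 and 7.05 on the wild-type arrays. The groups overlapped, with mutant replicate 3 the lowest array, at a detection p of 0.0406, and wild-type replicate 3 the highest. The means were 5.89 ± 0.782 on the arrays labelled mutant and 6.38 ± 0.827 on the wild-type arrays (SD, n = 3 each). The difference, mutant minus wild type, was −0.50 (95% confidence interval −1.72 to 0.725), and it did not pass, with a limma adjusted p of 0.997 over all 13638 features. In a sample of many cells, fewer cells of a kind and less RNA per cell cannot be told apart.

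Nkx6-1 was detected on every array and was brightest on mutant replicate 1. Its deposited intensity was 1452.7, 603.1 and 567.4 on the arrays labelled mutant, against 764.9, 469.2 and 504.6 on the wild-type arrays, and its detection p was 0 on all of them. The normalized log2 values were 10.47, 8.98 and 8.76 on the arrays labelled mutant and 9.24, 8.88 and 8.89 on the wild-type arrays. Mutant replicate 1 alone stood above the wild-type range, mutant replicate 2 inside it and mutant replicate 3 below it. The means were 9.40 ± 0.933 on the arrays labelled mutant and 9.005 ± 0.207 on the wild-type arrays (SD, n = 3 each). The difference was 0.40 (95% interval −0.639 to 1.44, limma adjusted p 0.997), and it did not pass.

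Nkx6-2 was low on the array where Nkx6-1 was high. The brighter of its probes had intensities of 196.3, 597.8 and 449.5 on the arrays labelled mutant, against 421, 327.8 and 377.6 on the wild-type arrays. Its normalized log2 values were 6.84, 8.96 and 8.35 on the arrays labelled mutant and 8.24, 8.24 and 8.40 on the wild-type arrays. The 3 wild-type values lay within a narrow band, with mutant replicate 3 inside it, mutant replicate 1 below it and mutant replicate 2 above it. The means were 8.05 ± 1.09 on the arrays labelled mutant and 8.29 ± 0.0919 on the wild-type arrays (SD, n = 3 each). The difference was −0.24 (95% interval −1.42 to 0.938, limma adjusted p 0.997) and did not pass.

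The other Nkx6-2 probe shared the low value on mutant replicate 1 but not the narrow wild-type band. It read 144.2, 296.5 and 261.3 on the arrays labelled mutant, against 304.7, 197.8 and 211.6 on the wild-type arrays, and its log2 values were 5.99, 7.68 and 7.34 on the arrays labelled mutant and 7.64, 7.19 and 7.23 on the wild-type arrays. Mutant replicate 1 was again the lowest array, while mutant replicate 2 lay only just above wild-type replicate 1. With every probe tested on its own its difference was −0.34 (95% interval −1.33 to 0.644, limma adjusted p 0.998). Both probes thus had the same sign over all 6 arrays, and both turned without mutant replicate 1, to 0.37 and 0.16.

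**Figure D2:**
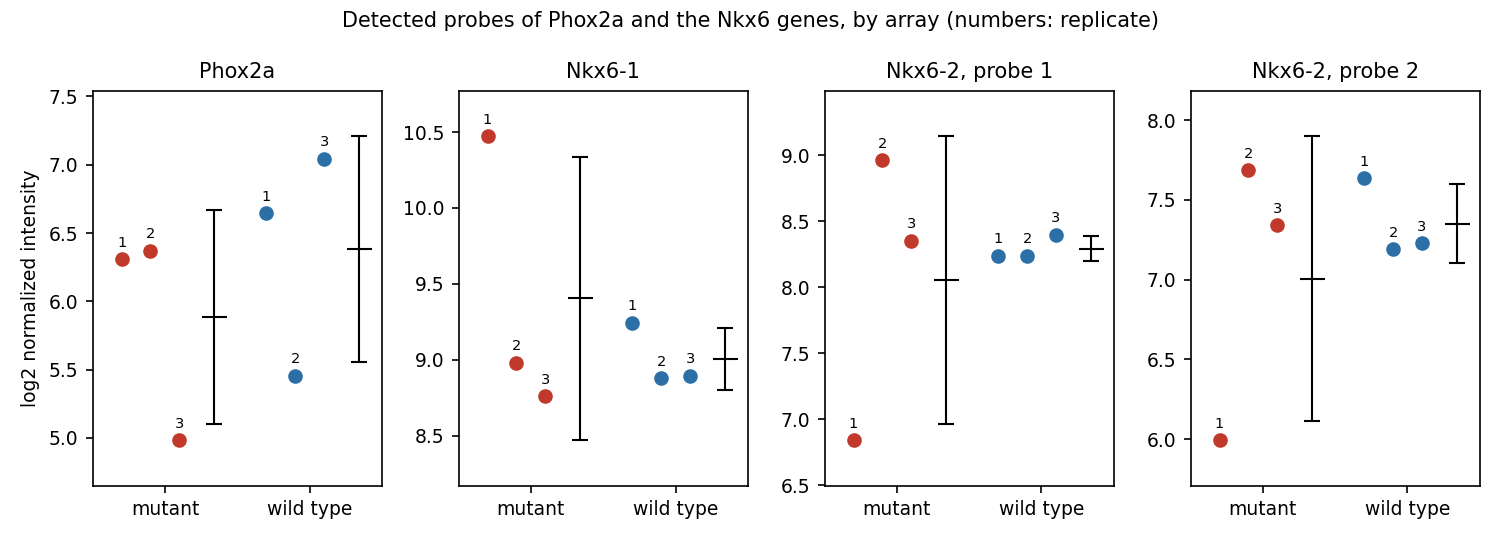
Normalized log2 intensity of the 4 kept probes on each array, with arrays labelled mutant on the left and wild-type arrays on the right of each panel. Points are single arrays numbered by replicate and bars are the group mean ± SD (n = 3). Mutant replicate 1 is the highest array for Nkx6-1, at 10.47, and the lowest for the brighter Nkx6-2 probe, at 6.84.

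The distance of single arrays from the rest was then measured against all features. On mutant replicate 1, Nkx6-1 stood 1.52 log2 units above the mean of the other 5 arrays, and 4% of the 13638 features were at least as far off on that array. Nkx6-2 stood at −1.60 there, a distance that 3.61% of features reached. Phox2a was at 0.21 on the same array, a distance that 66.2% of features reached. Its own large distances fell on mutant replicate 3, at −1.38, where 0.535% of features were as far off, and on wild-type replicate 3, at 1.09, with 0.755%. For the brighter Nkx6-2 probe mutant replicate 2 also stood out, at 0.95, a distance that 1.37% of features reached there.

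Markers of other cells were high on the array where the Nkx6 genes stood apart. The summed normalized intensity of the 6 kept blood genes, of 7 with a probe, was 73030 on mutant replicate 1 and 2245 and 3082 on replicates 2 and 3, against 1317 to 10600 on the wild-type arrays. Endothelial genes, 5 of 11 kept, summed to 4449 there and to 600.9 and 417.6 on the other arrays labelled mutant, against 393.2 to 680.5 on the wild-type arrays. The endothelial genes Pecam1, Cdh5, Kdr, Tek, Tie1 and Flt1 had no kept probe. Their brightest probes were also highest on mutant replicate 1, at log2 values of 5.065, 6.17, 5.12, 6.015, 4.57 and 5.78 in that order. Tie1 was detected on no array. Mesenchyme genes, 5 of 10 kept, summed to 16020 on mutant replicate 1 and to 3332 and 1257 on replicates 2 and 3, against 1555 to 3645 on the wild-type arrays. Col1a1, Col1a2, Col3a1, Lum and Prrx1, also of mesenchyme, had no kept probe. Their brightest probes were likewise highest on mutant replicate 1, at log2 values of 8.79, 7.05, 9.015, 10.19 and 5.97. On the other arrays none of them was above 5.983. Mutant replicate 1 was the highest array for every kept gene of these 3 lists, where it was the highest for 25.7% of all features.

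Sums of neuronal lists were low on that array. The 12 motor neuron genes summed to 3995 on mutant replicate 1 and to 8762 and 4864 on replicates 2 and 3. The wild-type sums were 6812 to 7170. On mutant replicate 1, 6 of the 12 had their lowest value, as did 35.7% of all features. Lhx4 had log2 values of 6.62, 11.07 and 9.80 on the arrays labelled mutant and 10.98, 10.67 and 10.14 on the wild-type arrays. Isl1 and Chat were lower on mutant replicate 3 than on mutant replicate 1. The sum without Lhx4 was not taken, so a fall across motor neuron genes in general was not tested. The 8 kept ventral interneuron genes summed to 5154 on mutant replicate 1 and to 13610 and 13380 on the other arrays labelled mutant. The wild-type sums were 12090 to 15830, and all 8 genes were lowest on mutant replicate 1. Genes that pattern ventral progenitors, the class to which the Nkx6 factors belong, had 7 of 14 kept and summed to 4868 on mutant replicate 1 and to 2443 and 1684 on replicates 2 and 3, against 2080 to 3582 on the wild-type arrays. Most of that sum on mutant replicate 1 came from Olig1, and 2 of the 7 genes, Olig1 and Foxa2, were highest there. Without Olig1 the sum was 1801 on mutant replicate 1 and 2162 and 1323 on replicates 2 and 3, against 1704 to 2873 on the wild-type arrays. Nkx6-1 was thus highest on the array where the blood, endothelial and mesenchyme sums were highest. Nkx6-2 was lowest where the ventral interneuron sum and the motor neuron sum, Lhx4 included, were lowest. The part of other cells in either value was not tested.

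**Figure D3:**
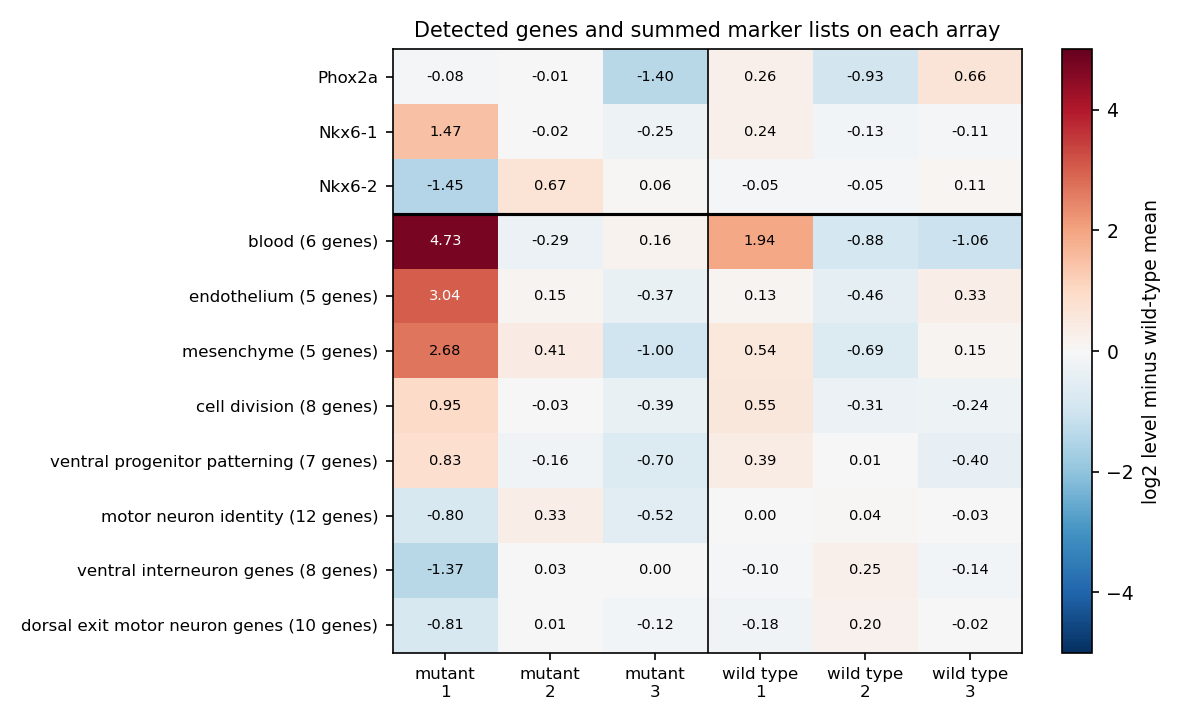
Log2 level of Phox2a, Nkx6-1 and Nkx6-2 and of the summed intensity of 8 marker lists on each array, minus the mean of the wild-type arrays. Columns are arrays, those labelled mutant on the left, and red is above and blue below the wild-type mean. Mutant replicate 1 carries the highest blood sum, 73030, together with the highest Nkx6-1 and the lowest Nkx6-2 value.

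Without mutant replicate 1 the Nkx6 differences changed sign and the Phox2a difference did not. Nkx6-1 was then at −0.14 (95% interval −0.569 to 0.297), Nkx6-2 at 0.37 (−0.136 to 0.867) and Phox2a at −0.71 (−2.02 to 0.609), each with a limma adjusted p of 1. In that fit 0 of the 13638 features passed, a share of 0%, and 337 features (2.47%) had an unadjusted p under 0.05, none of them 1 of the 3 genes. The Phox2a difference shrank most without mutant replicate 3, to −0.044 (limma adjusted p 0.985).

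Over all 6 arrays 0 of the 3 tested genes passed at a limma adjusted p under 0.05, and 0 of 13638 features did, so the background share was 0%. None of the 3 had an unadjusted p under 0.05, which 250 features (1.83%) had. None of the 3 had groups that did not overlap, against 751 features (5.51%). Of the 3 genes 1 was higher and 2 were lower on the arrays labelled mutant, where 47.4% of all features were higher and the median difference was −0.014. The intervals include differences in either direction: that of Nkx6-2 spans −1.42 to 0.938 and that of Phox2a −1.72 to 0.725.

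**Figure D4:**
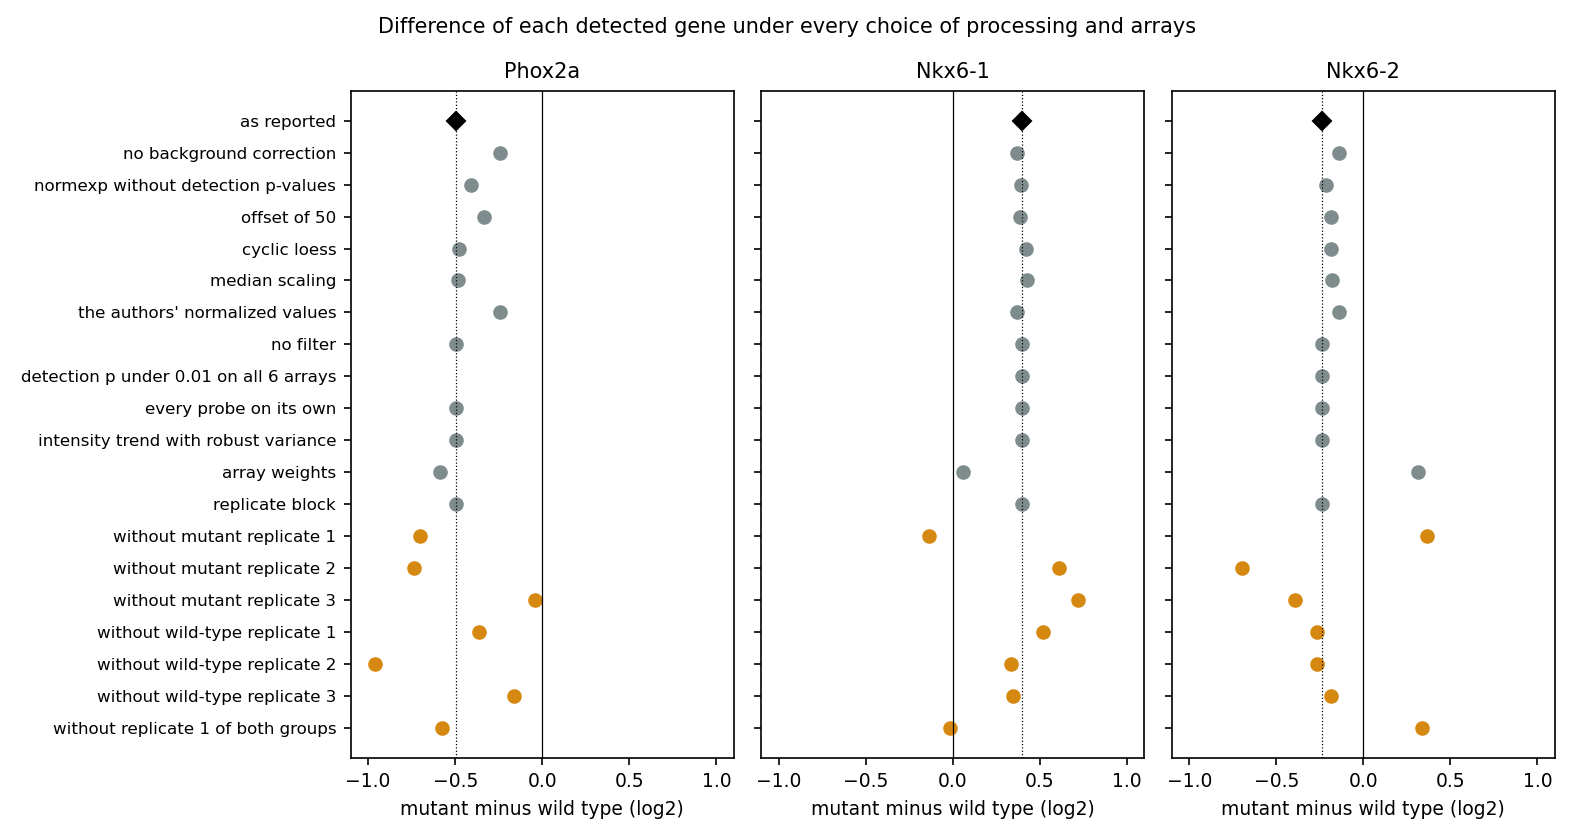
Difference of Phox2a, Nkx6-1 and Nkx6-2, mutant minus wild type in log2 units, as reported (diamond, dotted line) and under each other choice of processing or test (grey) or with arrays left out (orange). The difference of Phox2a stays below 0 in all 18 alternatives that give it a value, while Nkx6-1 crosses 0 in 2 and Nkx6-2 in 3 of 19. Settings that change only the features tested, the variance or a balanced block leave the difference as it was by construction.

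The genes most like each factor over the 6 arrays were named by Pearson correlation among 10438 named features, as a description. With 6 points and that many candidates, a high r can come from the picking alone. The points share their processing, and for the Nkx6 genes mutant replicate 1 lies far from the other 5. Nkx6-1 was followed most closely by Trf, which encodes the iron carrier transferrin, at r = 0.999, by the folate enzyme gene Fpgs at 0.999 and by Cyba, a subunit of the NADPH oxidase, at 0.999. Trf had log2 values of 6.47, 4.93 and 4.74 on the arrays labelled mutant and 5.19, 4.81 and 4.88 on the wild-type arrays. Over the 5 arrays without mutant replicate 1 its r was 0.992. Trf was picked on arrays that include these 5, so that value is no separate check. Nkx6-2 was followed by the scaffold gene Lin7a at r = 0.998, Slx4ip at 0.995 and the uridylyltransferase gene Tut1 at 0.991. Lin7a was at 11.38, 12.17 and 11.95 on the arrays labelled mutant and at 11.91, 11.92 and 11.94 on the wild-type arrays, a much narrower range than that of Nkx6-2. Phox2a was followed by the DNA repair gene Faap24 at r = 0.997, Wdr11 at 0.996 and Rgs7bp, a binding protein of a G protein regulator, at 0.986. Faap24 was at 6.42, 6.41 and 6.23 on the arrays labelled mutant and at 6.47, 6.31 and 6.52 on the wild-type arrays, again a narrower range. Between the factors themselves, r over the 6 arrays was −0.898 for Nkx6-1 and Nkx6-2 and −0.045 without mutant replicate 1. It was 0.258 for Phox2a and Nkx6-1, or 0.605 without that array, and −0.021 for Phox2a and Nkx6-2, or 0.211 without it.

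Other genes of dorsally exiting motor neurons were then set beside the 5. Of 14 such genes with a probe 10 were kept, and 0 passed in either direction. Of the kept genes, Isl1, Gata2, Gata3, Gli2 and Nkx2-2 also stand in other lists here, so the list is not specific to dorsal exit. On the arrays labelled mutant 2 of the 10 were higher and 8 lower, with a median difference of −0.18 against −0.014 over all features. Without mutant replicate 1 that median was −0.016, against 0.0034 over all features. Alcam, a cell adhesion gene found on spinal accessory axons in mouse, was at 8.66, 7.42 and 6.83 on the arrays labelled mutant and 7.02, 6.18 and 7.21 on the wild-type arrays. Its difference was 0.83 (95% interval −0.335 to 1.998, limma adjusted p 0.997), and 0.32 without mutant replicate 1. Isl1, a LIM homeodomain factor of motor neurons, was at 9.40, 10.25 and 9.20 on the arrays labelled mutant and 9.89, 10.01 and 10.04 on the wild-type arrays. Its difference was −0.36 (−1.02 to 0.295). Mutant replicates 1 and 3 lay below all wild-type arrays for Isl1 and replicate 2 above them.

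Relatives of the undetected factors varied in detection. Nkx2-2, a homeodomain factor that works alongside Nkx2-9 in the most ventral progenitors, was detected on all 6 arrays by its brighter probe. It had log2 values of 8.004, 7.91 and 7.36 on the arrays labelled mutant, against 8.11, 7.67 and 8.46 on the wild-type arrays. Its difference was −0.32 (95% interval −0.943 to 0.305), and its other probe was at 0.039, so the probes differed in sign. Tbx2 and Tbx3, T-box genes related to Tbx20, had no kept probe: the 2 probes of Tbx2 were detected on 0 and 1 arrays and each of the 4 probes of Tbx3 on 1 array.

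Genes of ventrally exiting motor neurons were all kept, and none passed. Mnx1, Lhx3, Lhx4 and Isl2 of this list are also among the motor neuron genes above. Of the 6, 0 had a positive difference and 6 a negative one, where 47.4% of all features were higher. The median difference was −0.31, against −0.014 over all features. Without mutant replicate 1 it was −0.10, against 0.0034 over all features. Mnx1 was then at 0.011, Isl2 at −0.016, Foxp1 at −0.041, Lhx4 at −0.16 and Cxcr4 at −0.44. Lhx3, which directs somatic motor neuron identity, was at 5.43, 6.82 and 6.08 on the arrays labelled mutant and 6.68, 7.17 and 6.46 on the wild-type arrays. Its difference was −0.66 (95% interval −1.53 to 0.216), and −0.31 without mutant replicate 1. Cxcr4, a chemokine receptor that keeps motor axons on the ventral path in mouse, was at 9.40, 8.83 and 9.19 on the arrays labelled mutant and 9.75, 9.34 and 9.24 on the wild-type arrays. Its difference was −0.31 (−0.82 to 0.205). The lowest array for 4 of the 6 genes was mutant replicate 1, which was the lowest for 35.7% of all features. For dorsally exiting genes it was the lowest for 6 of 10.

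**Figure D5:**
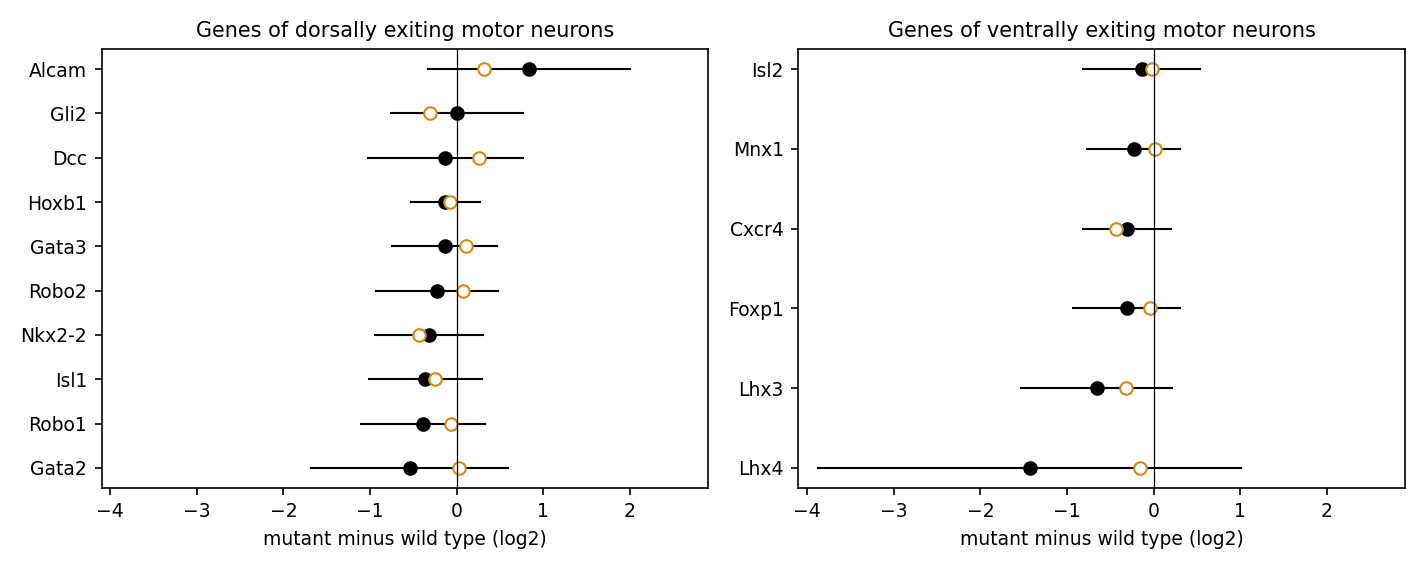
Difference, mutant minus wild type in log2 units, for the kept genes of dorsally (left) and ventrally (right) exiting motor neurons. Black points with 95% intervals are from all 6 arrays and open orange points leave out mutant replicate 1. Every interval crosses 0.

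In the ventral progenitor network around Nkx6-1 and Nkx6-2, 7 of 14 genes were kept, and 0 passed. They were higher for 2 and lower for 5, with a median of −0.30, or −0.39 without mutant replicate 1. Dbx1, a homeodomain gene that Nkx6 factors repress in mouse, was at 6.90, 6.26 and 5.76 on the arrays labelled mutant and 7.40, 6.84 and 6.98 on the wild-type arrays. Its difference of −0.77 (95% interval −1.50 to −0.0349) had an unadjusted p of 0.0424 and a limma adjusted p of 0.997, and it was −1.06 without mutant replicate 1. The groups overlapped, since mutant replicate 1 lay above wild-type replicate 2. Irx3, a repressor at the dorsal border of the motor neuron domain, was at −0.51 (−1.39 to 0.372). Olig2, Pax6, Dbx2, Pax3, Pax7, Prdm12 and Sox1 were detected on no array by their brightest probe.

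Hedgehog signalling sets the expression of Nkx6 and Nkx2 genes in the ventral neural tube. Of 11 hedgehog genes with a probe 9 were kept, 0 passed, 5 were higher and 4 lower, and the median difference was 0.0018, or −0.23 without mutant replicate 1. Cdon, a hedgehog co-receptor gene, was at −0.42 (95% interval −1.12 to 0.291), and at −0.21 without mutant replicate 1. Hhip, which encodes a hedgehog-binding inhibitor, was at −0.23 (−0.728 to 0.262) and was detected on 1 array labelled mutant and 2 wild-type arrays.

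Other cells that use Phox2a or Tbx20 left few detected markers. Of 9 noradrenergic and autonomic genes with a probe 3 were kept, and the noradrenaline pathway genes Th, Dbh and Slc6a2 were not. The kept genes were Insm1 at −0.38 (95% interval −0.874 to 0.118), Ddc at 0.20 (−0.226 to 0.636) and Gata3 at −0.14. Without mutant replicate 1 they were at −0.21, 0.20 and 0.11, and the list's median turned to 0.11 without that array, against −0.14 over all 6. Their summed intensity was 580.7 to 851.8 on the arrays labelled mutant, against 781.8 to 967.6 on the wild-type arrays. Of 11 heart genes with a probe 2 were kept, Nppa at 0.59 (−0.309 to 1.49) and Mef2c at 0.76 (−0.751 to 2.27), and the cardiac factors Nkx2-5, Gata4 and Tbx5 were detected on no array by their brightest probe. Nppa was detected on 2 arrays labelled mutant and 1 wild-type array, and Mef2c on 2 arrays of each group. Without mutant replicate 1 Nppa was at 0.18 and Mef2c at 0.0021. The sum of these 2 genes was 218.7 on mutant replicate 1 and 73.8 and 50.49 on replicates 2 and 3, against 44.16 to 70.17 on the wild-type arrays. The other 9 heart genes with a probe were not kept. Mutant replicate 1 also held the single Tbx20 call and the highest endothelial sum, and the source of that call was not tested.

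Among lists of other cells, 0 genes passed. In all 14 lists together, 87 of 134 genes with a probe were kept. On the arrays labelled mutant 42 were higher and 45 lower, and 2 had an unadjusted p under 0.05, Dbx1 and Cspg4. Over all 13638 features 1.83% had such a p, so 2 of 87 is near the background share. Cspg4, a proteoglycan of glial precursors and pericytes, was at 5.92, 5.45 and 5.28 on the arrays labelled mutant and 4.54, 4.96 and 4.90 on the wild-type arrays. The groups did not overlap, which also held for 5.51% of all features. The probe was detected on only 1 wild-type array and the limma adjusted p was 0.997. Neural crest and glial genes were higher for 6 of 7, with a median of 0.22, and of −0.11 without mutant replicate 1, and Foxd3 was at 0.21. Dorsal interneuron genes were lower for 7 of 10, with a median of −0.18, and of −0.085 without mutant replicate 1. Among them Ptf1a, a factor of inhibitory interneurons, was at −0.68 and Pou4f1 at −0.39, or −0.56 and −0.076 without that array. Ventral interneuron genes were lower for 8 of 8, with a median of −0.36 that turned to 0.070 without mutant replicate 1, and Lhx1 was at −0.56 and Sox14 at −0.27, or −0.12 and −0.098 without it.

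Blood genes were higher for 6 of 6, with a median of 1.36, endothelial genes for 5 of 5, with 1.08, and mesenchyme genes for 5 of 5, with 0.71. Without mutant replicate 1 these medians were −0.043, −0.15 and −0.17. Examples over all 6 arrays were the embryonic globin gene Hbb-bh1 at 1.77, the adult globin gene Hbb-b2 at 0.98, the junction gene Esam at 1.09, Ets1 at 1.08, Fstl1 at 0.70 and Twist1 at 0.71. Genes of dividing cells were higher for 5 of 8, with a median of 0.050 and of −0.24 without mutant replicate 1, and Pcna was at −0.52 and Plk1 at 0.72, or −0.82 and −0.029 without it. Pcna was detected on 1 array labelled mutant and 3 wild-type arrays. It thus passed the filter mostly through the group where it was higher, and its difference carries that selection.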

How the data were processed

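The deposited table gives, per the file headers, a linear intensity and a detection p-value for each probe on each array. Per the labels' protocols, the Illumina TotalPrep kit was used for amplification and biotin as the label. A second table holds the intensities as normalized by the authors, within 1.43% of quantile normalization without background correction. Scanner software and slides were not known here. Value columns left without a sample numbered 0.

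Here background was corrected by normexp in limma 3.58.1 (R 4.3.3), with negative controls inferred from detection p and an offset of 16, then log2 and quantile normalization. Probes with a detection p under 0.05 on at least 3 of 6 arrays were kept (19735), and the brightest stood for its gene, giving 13638 features, 10438 named. Symbols came from the platform annotation: 34885 probes had 1, 18 several and 10378 none. Limma's lmFit and eBayes compared genotypes over all features, with Benjamini-Hochberg adjustment and calls at an adjusted p under 0.05. The fit was run on simulated data with independent normal noise and changes set in advance. No simulated array stood apart as mutant replicate 1 does, so that run does not cover such an array. Signal over background and the number of arrays limit the precision. The members and lists were chosen with earlier results of these data known. Named genes are the members, the 2 genes of each list with the smallest p, the 3 features most like each member, and Hoxa5 and Hoxc5. Others (kept or not kept) are named to account for a list. Deposited arrays were no duplicates, with identical intensities for at most 0.435% of probes in any pair.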

Additional observations from a re-analysis of the deposited data

How the results depend on the processing

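Of the 5 genes, Tbx20 and Nkx2-9 had no kept probe and so no value here. Phox2a kept its sign in 18 of 18 alternatives, from −0.96 to −0.044, and had none when detection p under 0.01 was required on all 6 arrays. It was −0.24 without background correction and −0.24 with the authors' normalized values, against −0.50 as reported. Some of the alternatives could not move a difference, since they changed only the features tested, the variance or a balanced block. They were the unfiltered fit, every probe on its own, the intensity trend with robust variance and the replicate block. For the Nkx6 genes the stricter detection filter was another. In these settings a kept sign is no check. Nkx6-1 reversed to −0.14 without mutant replicate 1 and to −0.016 without replicate 1 of both groups, and leaving out single arrays gave −0.14 to 0.72. Array weights left it at 0.058. Nkx6-2 reversed to 0.31 with array weights, to 0.37 without mutant replicate 1 and to 0.34 without replicate 1 of both groups, and leaving out single arrays gave −0.69 to 0.37. The construction of the fits without mutant replicate 1 shows that array's part in the sign; the cause of its values was not tested. None of the 3 genes passed in any of the alternatives run, with limma adjusted p from 0.834 to 1. Leaving out single arrays gave −0.96 to −0.044 for Phox2a.

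The number of features passing was 0 as reported and in 17 of 19 alternatives, with 139 to 829 at an unadjusted p under 0.05. It was 1 with median scaling (Thap4), and 0 to 1 with single arrays left out, the 1 being Cops8 without mutant replicate 3. Both were named after their values were seen. The number of genes of the 14 lists passing was 0 throughout the 19. The labels number replicates 1 to 3 in each group and do not say what the number stands for. Deviations of same-numbered arrays from their group means correlated at 0.32, 0.013 and 0.104. Those of arrays with unlike numbers ran from −0.46 to 0.393. With 3 arrays per group these values cannot decide whether same-numbered arrays form pairs. The replicate block gave 0 features passing and 379 with an unadjusted p under 0.05. The differences of Phox2a, Nkx6-1 and Nkx6-2 stayed at −0.50, 0.40 and −0.24, as they must when a block is balanced over both groups. Depth of signal limits Tbx20 and Nkx2-9, which lie at background.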
